A study of Homo sapiens with 3 samples.

Results

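The regions described here are the late-listed regions of ZMYND11 in ETS1-knockout DU145 cells. They are the last 50% of the lines of that list and 45.5% of the 17232 regions in the 3 lists of the series. They fill 5 of 10 equal stretches of the list, each of 1567 or 1568 regions. They were chosen by line number alone, and the equal number of lines before them, called early-listed below, are what they are set against. DU145 is an established prostate adenocarcinoma line grown from a brain metastasis. ZMYND11, also called BS69, was precipitated with its DNA (ChIP-seq) from ETS1-knockout cells and, in a second library, from parental cells, which gave 536 regions. ETS2 was precipitated from ETS1-knockout cells and gave 1020 regions. All cells were kept in DMEM with serum and antibiotics, with puromycin where they had been selected. How ETS1 was removed, and whether the knockout line is a clone, is not given in the sources used here. Each of the 3 lists came from 1 library, so no value below has a replicate error, and every test compares stretches of lists and not conditions.

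As a reader of chromatin marks with co-repressor activity, ZMYND11 binds methylated histone H3 in the bodies of transcribed genes, where it holds back elongation by RNA polymerase II. ETS1 and ETS2 are closely related transcription factors that bind DNA with a GGAA core and are activated by ERK downstream of Ras. The title of the series names ZMYND11 as the partner through which these factors act in opposite ways. The files give only a chromosome, a start and an end for each region, in bp on hg19. No read count, peak height or score came with them, and gene names, gene features and DNA sequence were not analysed here. Library depth is unknown, and the meaning of the line order is not stated. A line number is therefore used as a place in the list and not as a strength of binding.

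The dividing line fell between regions that look alike. The first late lines were chr7:143087018-143087515, 497 bp wide, and chr7:148762400-148762898, 498 bp wide. The last early lines before them were chr9:103057123-103057616, 493 bp wide, and chr7:938609-939106, 497 bp wide. The late lines went on with chr8:103876125-103876607, chr3:112280898-112281392 and chr3:193855237-193855726. None of these regions, late or early, overlapped a region of the ETS2 or the parental list. The list ended with chr20:33972010-33972498, chr14:48102430-48102920, chr14:69409600-69410069, chr8:133332565-133333061 and chr5:31901942-31902442. Of the last 5 lines, only line 15673, the first of the chromosome 14 regions, overlapped a parental region.

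The late lines were largely written in runs along the genome. Among pairs of consecutive late lines, 4632 lay on the same chromosome (59.1%, 95% Wilson interval 58.0 to 60.2%), and of these 4627 (99.9%) had the second line at the higher position. Among early lines 2807 pairs shared a chromosome (35.8%, interval 34.8 to 36.9%), and of these 2774 (98.8%) rose in position as well. In the whole parental and ETS2 lists, 9.53% and 6.38% of pairs shared a chromosome, and 82.4% and 76.9% of those rose in position. The chromosomes followed each other in a repeating order which, as fitted on the early lines, ran through 3, 22, 4, 1, 2 and 20. Read in that order, the late lines made 349 passes through the genome with a median of 14 lines each, and the early lines made 1044 passes with a median of 4. The order fitted on early lines therefore applied to late lines that had not been used to find it. With chromosomes sorted as numbers, the late lines needed 1363 passes. The longest late pass held 103 lines, from line 9946 on chromosome 3 to line 10048 on chromosome 6, over 21 chromosomes. The dividing line itself fell inside a pass of 15 lines (7827 to 7841), so that the lines of this pass on its 2 sides followed each other in the fitted order. By the way a pass is defined, its later lines lie farther along that order. Whether the order within a pass also reflects another value is not known.

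To follow the values along the list, the 10 stretches were numbered from its start, so that 6 to 10 are late. The share of lines followed by a line on the same chromosome was 63.8% in stretch 6, 64.4% in stretch 7, 65.5% in stretch 8, 59.4% in stretch 9 and 42.4% in stretch 10, against 10.1%, 22.7%, 37.1%, 49.7% and 59.3% in the early stretches 1 to 5. The number of passes was 50 in each of stretches 7 and 8, 58 in stretch 9 and 140 in stretch 10, against 58 in stretch 5 and 555 in stretch 1. Orderly runs were thus found on both sides of the dividing line, in stretch 5 as much as in stretch 9, and the last lines returned part of the way to the mixed order seen at the start.

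**Figure D1:**
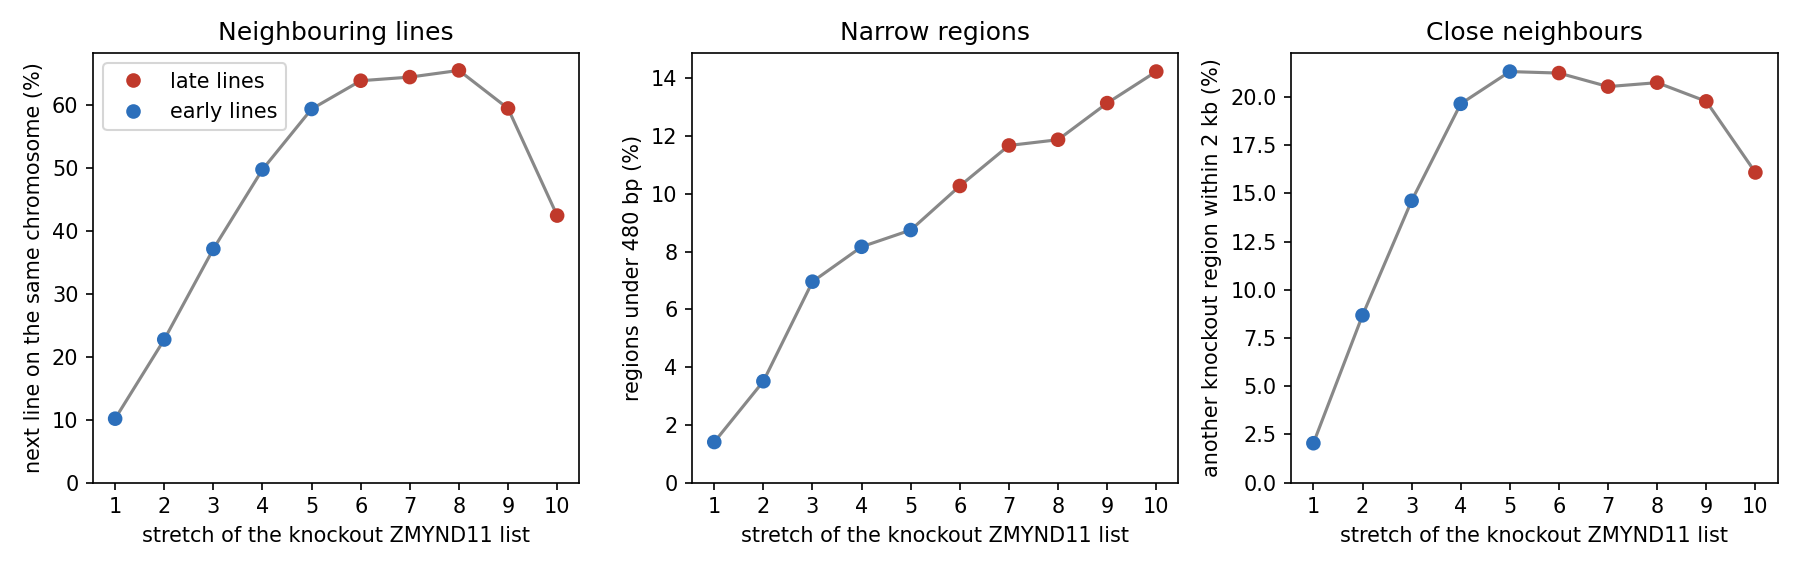
Values along the knockout ZMYND11 list in 10 equal stretches, with late stretches in red and early ones in blue: lines followed by a line on the same chromosome (left, %), regions under 480 bp (middle, %) and regions with another knockout region within 2 kb (right, %). The left and right panels climb through the early stretches, are level over stretches 6 to 8 and fall in stretch 10, whereas the middle panel climbs from 1.40% in stretch 1 to 14.2% in stretch 10.

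Late regions were slightly narrower than early ones. Widths ran from 325 to 501 bp in late lines with a median of 495 bp (quartiles 488 and 499), against 290 to 501 bp in early lines with a median of 497 bp (quartiles 492 and 500). A width under 480 bp was found for 959 late regions (12.2%, interval 11.5 to 13.0%) and for 451 early regions (5.75%, interval 5.26 to 6.29%), a difference of 6.48 percentage points (p = 2.23e-46 by Fisher's exact test, which is two-sided throughout). This share rose along the whole list, from 1.40% in stretch 1 to 8.74% in stretch 5, 10.3% in stretch 6 and 14.2% in stretch 10. It was 11.3% in stretches 6 to 8 against 7.95% in stretches 3 to 5 (p = 5.51e-08, Fisher's exact test). Among the parental regions, which are the fewest, 23.7% were under 480 bp, and among ETS2 regions 6.96%. Full widths of 500 bp or more made up 18.8% of late and 26.8% of early regions. Together the late regions covered 3.85 Mb, against 3.87 Mb for the early ones. Neighbouring regions share chromatin and are not independent, so p-values over regions here and below are too small.

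Late regions seldom met ETS2. An overlap of at least 1 bp with an ETS2 region was found for 15 late regions (0.191%, interval 0.116 to 0.316%), against 567 early regions (7.23%, interval 6.68 to 7.83%). Over the whole knockout list the share was 3.71%. The late share was lower by 37.8-fold, or -7.04 percentage points (exact p = 1.03e-150). The early lead came mostly from stretch 1, with 464 overlaps, and stretch 2, with 71, and the early stretches 3 to 5 held 17, 12 and 3. Low overlap with ETS2 was therefore not limited to late lines, since the early stretch 5 had 0.191%, the same share as all late lines. Away from both ends of the list the contrast was smaller, and stretches 6 to 8 held 12 overlaps in 4703 regions (0.255%) against 32 in 4702 (0.681%) for stretches 3 to 5 (Fisher's exact test, p = 0.0024). By stretch, the late lines held 6, 5, 1, 3 and 0 overlaps. The 0 of 1567 in stretch 10 allows a share of up to 0.191% if taken as at most 3 regions, and its Wilson interval reaches 0.245%.

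The 15 late regions shared with ETS2 stood late in the ETS2 list as well. Their ETS2 partners had a median place of 933 of 1020, against 403 for the partners of early regions, and 8 of 15 (53.3%) were in the last 10% of the ETS2 list, against 30 of 567 (5.29%). None of them stood before place 332. In list order the first 10 were chr11:46722071-46722568, chr11:82876654-82877155, chr19:56934948-56935421, chr1:38177898-38178362, chr12:44200099-44200593, chr15:63340928-63341422, chr9:114118295-114118796, chr1:95352417-95352912, chr11:73881578-73882068 and chr5:133772853-133773352. The remaining 5 were on chromosomes 2, 5, 5, 4 and 12.

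The fit of these shared regions varied. The chromosome 1 region at line 9754 and its ETS2 partner overlapped by 488 bp with midpoints 4 bp apart, and the chromosome 19 region at line 8437 overlapped by 474 bp, also with midpoints 4 bp apart. At the other end, the chromosome 1 region at line 8491 touched its partner by 18 bp, with midpoints 464 bp apart, and the chromosome 11 region at line 8331 by 37 bp. Over all 15 the midpoints lay 166 bp from those of ETS2 at the median, with quartiles of 88.3 and 306 bp, against 137 bp, with quartiles of 56.5 and 256 bp, for the 567 early regions. An overlap of 250 bp or more was found for 10 of 15 late (66.7%) and 413 of 567 early regions (72.8%). These distances were not tested between late and early regions, since 15 regions give little precision.

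Overlap with ZMYND11 in parental cells divided the list less sharply. It was found for 21 late regions (0.268%, interval 0.175 to 0.409%) and 35 early regions (0.447%, interval 0.321 to 0.620%), and over the whole knockout list for 0.357%. The difference of -0.18 percentage points did not pass the threshold of 0.05 (Fisher's exact test, p = 0.0809, odds ratio 0.599). It did pass under a looser rule, midpoints within 1000 bp in place of overlap (0.332% of late and 0.587% of early regions, exact p = 0.0241). Under a stricter rule, overlap of 50% of both regions, it did not (0.204% of late and 0.344% of early regions, exact p = 0.126). Of all knockout regions shared with parental cells, late lines held 37.5%, whereas of all those shared with ETS2 they held 2.58%. Seen from the other lists, late lines met 3.92% of the 536 parental regions (interval 2.58 to 5.92%) and 1.47% of the 1020 ETS2 regions (interval 0.893 to 2.41%). Early lines met 6.53% and 55.6% of the same lists.

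The 21 were not spread evenly. Stretches 6 to 10 held 0, 5, 4, 2 and 10 of them, so that stretch 10 had 0.638% (interval 0.347 to 1.17%). The 0 of 1568 in stretch 6 allows up to 0.191% if taken as at most 3 regions, and its Wilson interval reaches 0.244%. The early stretches held 15, 9, 5, 3 and 3. Without stretch 10 the late share was 0.175%, below the early share (Fisher's exact test, p = 0.0046), and with stretches 3 to 5 as the only early lines the share of all late regions was higher by 0.03 percentage points (Fisher's exact test, p = 0.855). Stretches 6 to 8 had 0.191% and stretches 3 to 5 had 0.234% (Fisher's exact test, p = 0.663). Leaving out stretch 10 thus widened the gap, and neither comparison without the first 2 stretches passed.

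The regions at the very end of the knockout list met the very end of the parental list. Line 15673, chr14:48102430-48102920, overlapped the last parental region, place 536 of 536, by 486 bp with midpoints 7 bp apart. Of the 10 overlaps in stretch 10, 6 had a partner in the last 10% of the parental list, with a median partner place of 516.5. Besides line 15673 these were chr19:10793852-10794352, chr14:48970922-48971415, chr17:62563647-62564131, chr5:32680462-32680959 and chr19:781833-782334, named after their places were seen. The partners of the other 4 were at places 10, 244, 332 and 471. The earliest of these partners met chr4:49313965-49314466, at line 14439, by 76 bp. Of the 10, 5 had no other knockout region within 100 kb, against 13.1% of all regions of stretch 10.

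Ahead of stretch 10 the shared regions had partners from any part of the parental list. The first 10 in list order were chr1:156264737-156265235, chrX:153586496-153586995, chr20:60926092-60926590, chr5:137802095-137802581, chr17:76354580-76355063, chr14:50257855-50258349, chr1:161007474-161007972, chr20:33125971-33126454, chr14:38068788-38069288 and chr11:64636878-64637361. The partners of the first and the second of these were at places 26 and 17, and the others at 122 to 501. At the median, midpoints lay 65 bp apart in the 21 late pairs, with quartiles of 11.5 and 238 bp, and 110 bp apart in the 35 early pairs, with quartiles of 37.0 and 236 bp. No late region overlapped regions of both other lists, whereas 10 early regions did.

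**Figure D2:**
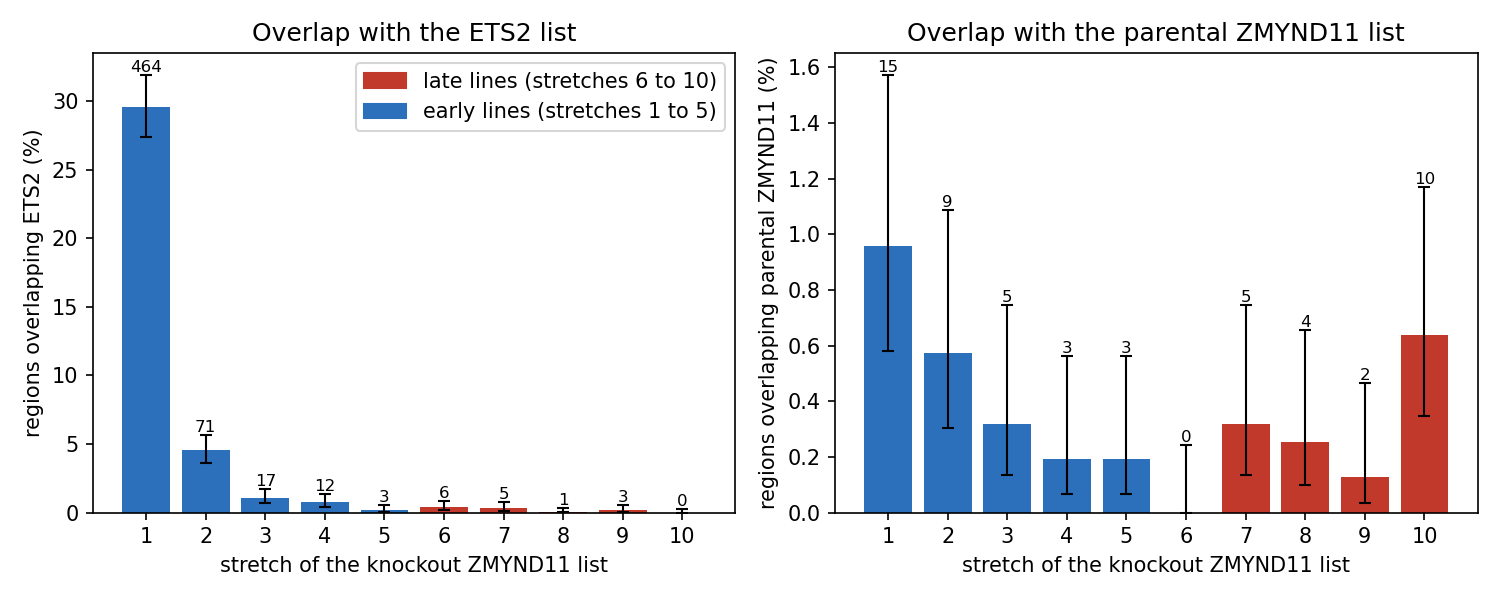
Share of knockout ZMYND11 regions (%) that overlapped an ETS2 region (left) or a parental ZMYND11 region (right) by at least 1 bp, in 10 equal stretches of the list, late in red and early in blue. Bars start at 0, error bars are 95% Wilson intervals, and the number above each bar counts regions: ETS2 overlap falls to 0 regions in stretch 10, where parental overlap reaches 10 regions.

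Taken as a whole, late regions were also farther from ETS2 regions than early ones. Distances to ETS2 were not computed by stretch, and 464 and 71 of the 567 early overlaps lay in stretches 1 and 2. Over all regions, overlaps included, the nearest ETS2 midpoint was a median of 410 kb away from late and 246 kb away from early regions. Without overlap but within 1 kb, there were 9 late regions (0.115%) and 140 early regions (1.79%). At 1 to 10 kb there were 454 late (5.79%) and 546 early regions (6.97%), and at 10 to 100 kb 1637 late (20.9%) and 1677 early regions (21.4%). No ETS2 midpoint lay within 100 kb of 5723 late (73.0%) and 4908 early regions (62.6%). The shares were thus nearly equal at 10 to 100 kb, while late regions were fewer in the nearest band and more numerous beyond 100 kb. For the parental list, 131 late (1.67%) and 168 early regions (2.14%) had a midpoint at 1 to 10 kb without overlap, and 88.1% of late and 85.7% of early regions had none within 100 kb.

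On the chromosomes the late regions followed the early ones closely. Of 24 chromosomes, 2 differed in their share after Benjamini-Hochberg adjustment of exact tests, which is 8.33%, and the same 2 had an unadjusted p under 0.05. Chromosome 3 held 421 late regions (5.37%, interval 4.89 to 5.89%) and 325 early regions (4.15%, interval 3.73 to 4.61%), an odds ratio of 1.31 (adjusted p = 0.00862, exact test). Chromosome 19, the most gene-dense human chromosome, held 625 late regions (7.97%, interval 7.39 to 8.59%) and 734 early regions (9.36%, interval 8.74 to 10.0%), an odds ratio of 0.839 (adjusted p = 0.026, exact test). Chromosome 1 had the most late regions, 713 (9.10%, against 9.75% of early regions), and chromosome Y had 4 of each. Ratios of late to early counts ran from 0.723 on chromosome X, with 47 late and 65 early regions, to 1.30 on chromosome 3. Neither chromosome passed when stretches 6 to 8 were set against stretches 3 to 5 (adjusted p = 0.63 for chromosome 3 and 0.862 for chromosome 19, exact test), nor when megabases with more than 20 regions were left out. Leaving out those megabases did not make the chromosome 3 difference smaller, at 1.30 percentage points (7.05% against 5.75%) from fewer regions, against 1.22 with all regions. The chromosome 19 difference shrank to -0.05 percentage points. Without stretch 10, chromosome 3 passed (adjusted p = 0.046, exact test) and chromosome 19 did not (adjusted p = 0.241, exact test).

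**Figure D3:**
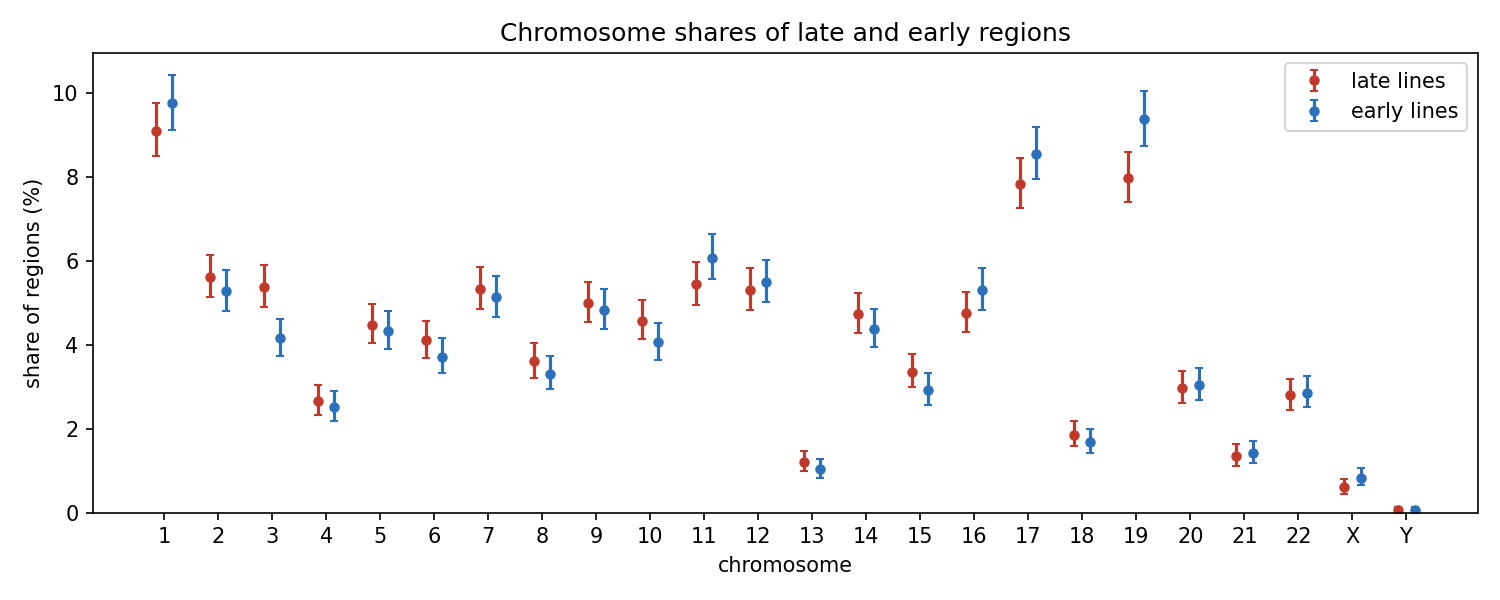
Share of late (red) and early (blue) knockout ZMYND11 regions on each chromosome (%), with 95% Wilson intervals. The intervals are apart on chromosome 3, where late regions made up 5.37% against 4.15%, and on chromosome 19, where they made up 7.97% against 9.36%, and overlap on the others.

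The surplus on chromosome 3 was spread out and not made by 1 place. Of 122 megabases of chromosome 3 with any region, 70 held more late than early regions, 35 held fewer and 17 held equal numbers. The largest surpluses were 14 late against 5 early regions at 53 to 54 Mb and 12 against 3 at 15 to 16 Mb. On chromosome 19, late regions were fewer in 31 of 55 megabases and more in 19. They were most outnumbered at 1 to 2 Mb, with 29 late and 45 early regions, but led at 2 to 3 Mb with 31 late and 22 early.

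Across the genome, late regions were more often in sparse places. Of the knockout regions that were alone in their megabase, 62.2% were late (interval 56.8 to 67.3%). The late share was 55.5% in megabases with 2 to 4 regions, 53.6% with 5 to 9, 50.7% with 10 to 20 and 46.3% (interval 45.1 to 47.5%) with more than 20. Put the other way, 3174 late regions (40.5%) and 3683 early regions (47.0%) were in megabases of more than 20 regions, a difference of -6.49 percentage points (adjusted p = 8.37e-16 over 3 exact tests of density). The difference was -2.28 percentage points between stretches 6 to 8 and stretches 3 to 5 (Fisher's exact test, p = 0.0251). Of 1790 megabases with any region, 1255 held both kinds, 328 held late regions without early ones and 207 held early regions without late ones. The 328 were thinly filled, with 556 late regions in all and at most 9 in a megabase.

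**Figure D4:**
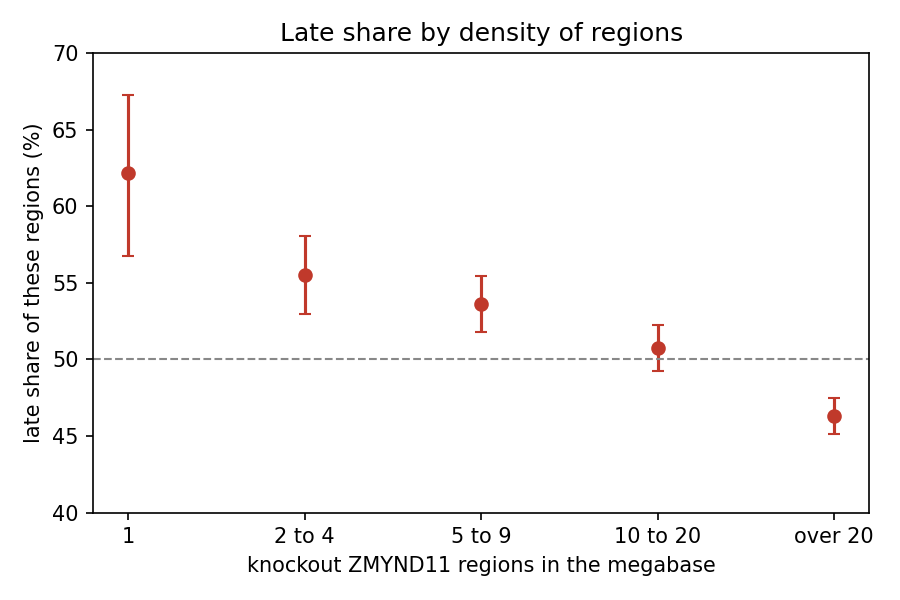
Share of knockout ZMYND11 regions that were late (%), by the number of knockout regions in the same megabase, with 95% Wilson intervals. The dashed line is the late share of the whole list, 50%, and the vertical axis starts at 40%: the late share is 62.2% where a region is alone in its megabase and 46.3% where there are more than 20.

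The megabases with most late regions were dense in early regions too. They were chromosome 14 from 105 to 106 Mb with 39 late and 33 early regions, chromosome 9 from 131 to 132 Mb with 34 and 30, chromosome 11 from 65 to 66 Mb with 32 and 38, and chromosome 17 from 73 to 74 Mb and from 79 to 80 Mb with 32 and 37 each. Their ETS2 counts differed widely for near equal numbers of late regions, with 17 ETS2 regions at chromosome 11, 65 to 66 Mb, and 1 at chromosome 14, 105 to 106 Mb. Late regions most outnumbered early ones on chromosome 18 from 21 to 22 Mb, where 22 late regions stood beside 5 early ones with no ETS2 or parental region. Next came chromosome 12 from 132 to 133 Mb (17 late, 6 early), chromosome 17 from 18 to 19 Mb (19 late, 9 early), chromosome 11 from 74 to 75 Mb (14 late, 4 early) and chromosome 19 from 2 to 3 Mb, whose lead of 9 was shared by 8 megabases in all. Early regions most outnumbered late ones on chromosome 11 from 66 to 67 Mb (27 late, 45 early), chromosome 1 from 156 to 157 Mb (18 late, 36 early), chromosome 8 from 145 to 146 Mb (14 late, 31 early), chromosome 19 from 1 to 2 Mb and chromosome 16 from 0 to 1 Mb (18 late, 34 early). The 12 megabases where late regions led by 9 or more held 0 to 4 ETS2 regions each, and the 5 where early regions led by 16 or more held 2 to 9. These ranges do not compare like with like, since the limits of 9 and 16 differ and so does the filling of the megabases. The 12 held 9 to 31 late and 0 to 22 early regions each, and the 5 held 14 to 29 late and 31 to 45 early regions each.

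Late and early regions were interleaved along the chromosomes. Of 15652 pairs of adjacent knockout regions, 3985 were both late, 7677 were late beside early (49.0%) and 3990 were both early. Read along each chromosome, late regions formed 3853 runs without an early region between them, of which 1851 were a single region and 235 held 5 or more. Early regions formed 3848 runs, of which 1912 were single and 263 held 5 or more, and the longest held 11. Run lengths were not tested. The longest late runs were 13 regions in chr10:95172690-96122761, 12 regions in chr12:132273650-132415178 and 11 regions in chr1:247140689-247507697. The chromosome 12 run was the tightest of these, with its 12 regions within 0.142 Mb, and they are 12 of the 17 late regions of that megabase. The lines of this run went from 7985 to 14543, so its regions stood far apart in the list.

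Most late regions had an early region near by. The nearest early midpoint was a median of 13.7 kb away (quartiles 4.18 and 70.5 kb), against 11.9 kb (quartiles 4.57 and 47.7 kb) from an early region to the next early one. It was within 10 kb for 44.4% of late and 45.8% of early regions, a difference that did not pass the threshold (adjusted p = 0.0864 over 25 spacing tests by Fisher's exact test). Within 100 kb it was 80.2% of late against 84.7% of early regions (adjusted p = 2.86e-13, exact test). Stretches 6 to 8 and stretches 3 to 5, measured only to regions of stretches 3 to 5, had 71.3% against 72.9% (p = 0.0847, exact test). With fewer early regions to measure to, these 2 shares are not comparable in level with those over all lines. Within 2 kb, 596 late regions (7.60%, interval 7.04 to 8.21%) had an early midpoint, against 474 early regions (6.05%, interval 5.54 to 6.60%) with another early one (adjusted p = 2.09e-04, exact test). This order turned round without the first 2 stretches of the list, at 6.39% of late against 7.44% of early regions (p = 0.0252, exact test). Distances there were measured only to the early regions kept. Without megabases of more than 20 regions the difference within 2 kb did not pass (p = 0.271, exact test).

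Late regions close to an early one stood beside the later of the early lines. For the 596 within 2 kb, the early neighbour had a median line of 5245 (quartiles 3807 and 6608), whereas over all late regions the nearest early neighbour had a median line of 3977. At 2 to 10 kb the median was 3757. The later early lines also had more close neighbours of any kind, with another knockout region within 2 kb for 2.04% of stretch 1 and 21.3% of stretch 5. The lines of early regions close to another early one were not computed, so a trait of late regions cannot be read from these medians. No late region had an early midpoint within 1 kb. The closest pairs were on chromosomes 6, 16, 8, 14 and 1. The late members were chr6:111196903-111197402, chr16:2711134-2711633, chr8:54792678-54793156, chr14:50079461-50079945 and chr1:45233394-45233891, and their early neighbours had midpoints 1031 to 1048 bp away. No pair of knockout regions, late or early, lay closer than 501 bp from edge to edge or 990.5 bp between midpoints.

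Just above that distance, pairs of late regions were in the majority. Of 127 adjacent pairs with midpoints within 1200 bp, 84 were both late (66.1%), 38 were late beside early (29.9%) and 5 were both early (3.94%). Over all distances late pairs made up 25.5% and early pairs 25.5%. At 1200 to 1600 bp there were 222 late, 265 mixed and 101 early pairs, and at 5 to 10 kb the order had changed to 421 late, 1072 mixed and 679 early pairs. In all, 1001 late regions (12.8%, interval 12.1 to 13.5%) had another late midpoint within 2 kb, against 474 early regions (6.05%) with another early one. The odds ratio was 2.27 (adjusted p = 3.69e-47, exact test). A close pair counts its 2 members, which makes such p-values smaller still. The 4 pairs under 1 kb were all late, and were named after their distances were seen. Their first members were chr11:33381128-33381614, chr14:34929652-34930144, chr19:37857152-37857645 and chr4:2735520-2736021.

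**Figure D5:**
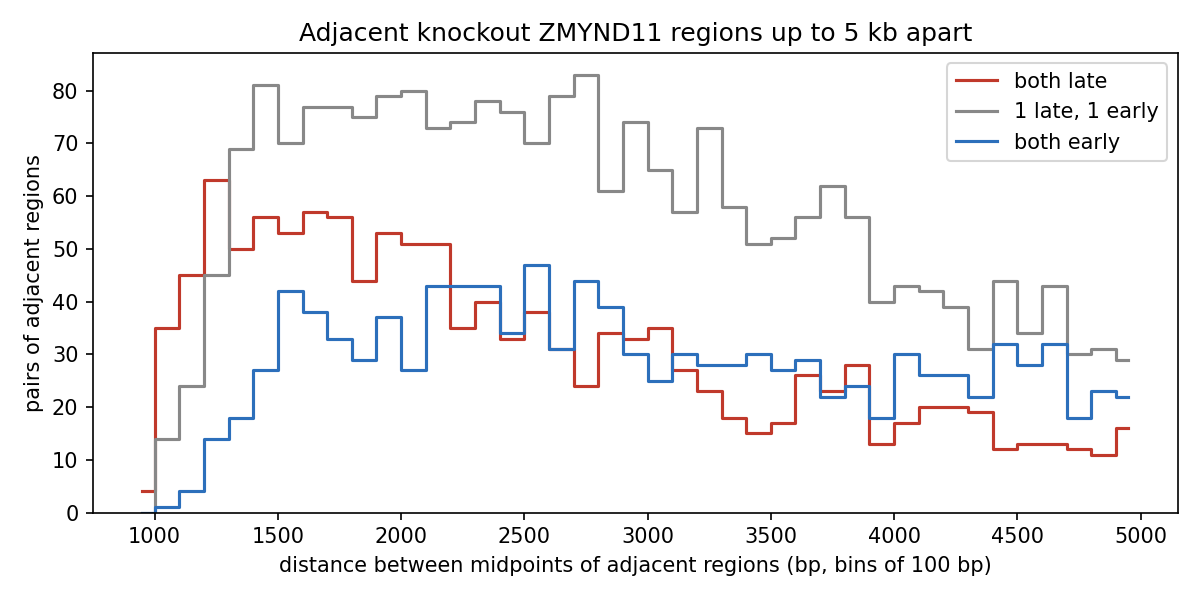
Number of pairs of adjacent knockout ZMYND11 regions by the distance between their midpoints, in bins of 100 bp up to 5 kb, for pairs that were both late (red), late beside early (grey) or both early (blue). Late pairs peak at 63 in the bin from 1200 to 1300 bp, where there are 14 early pairs, whereas from 3 to 5 kb there are 378 late against 520 early pairs in all.

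Most of the difference in close spacing lay at the start of the list. Counting any other knockout region as a neighbour, 19.7% of late and 13.3% of early regions had one within 2 kb. By stretch this share was 2.04% in stretch 1, 8.67% in stretch 2, 14.6% in stretch 3, 19.6% in stretch 4 and 21.3% in stretch 5, then 21.2%, 20.5%, 20.7%, 19.8% and 16.1% in the late stretches 6 to 10. Stretches 6 to 8 had 20.8% of such regions against 18.5% in stretches 3 to 5 (p = 0.00509, Fisher's exact test), whereas all late regions against stretches 3 to 5 did not pass the threshold (p = 0.117, exact test). Counting only neighbours from the same stretches, 8.53% of regions in stretches 6 to 8 had one within 2 kb, against 7.44% in stretches 3 to 5 (p = 0.0571, Fisher's exact test).

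Isolated regions were more frequent towards the end. No other knockout region lay within 100 kb for 803 late regions (10.2%, interval 9.59 to 10.9%) and 528 early regions (6.74%, interval 6.20 to 7.31%), with an adjusted p of 1.05e-14 by Fisher's exact test. Stretch 10 had 13.1% of such regions (interval 11.6 to 14.9%) against 8.29% in stretch 6 and 3.64% in stretch 1. Stretches 6 to 8 had 8.99% and stretches 3 to 5 had 8.02%, a difference that did not pass the threshold (p = 0.0962, exact test). The late regions farthest from any early one were on the sex chromosomes, which hold few regions. They were chrY:15034490-15034975 and chrY:15017309-15017808, both 12.3 Mb from an early midpoint and 0.0172 Mb from each other. The next were chrX:114794878-114795376 at 11.9 Mb, chrY:13307468-13307958 at 10.6 Mb and chrX:118925265-118925764 at 10.2 Mb.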

How the data were processed

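The authors deposited 1 list of regions per ChIP-seq library, with chromosome, start and end and no count, score or signal. Per the submitters' processing notes, Bowtie2 2.0.6 and hg19 were used. Depth, caller, control and threshold are not given in these sources. A region's listing can depend on all of them, and intervals cover counting error only.

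Members, lists and comparisons were chosen with earlier results of these data known. Late and early lines were compared in their overlap with the other lists, chromosome shares, widths and midpoint distances with two-sided Fisher's exact tests, with Benjamini-Hochberg adjustment over 24 chromosomes and over 25 spacing tests. Shares have 95% Wilson intervals. A count of 0 allows up to 3 regions. Coordinates were taken as closed intervals. The chromosome order of the passes was fitted on early lines. Regions were named by rule (lines around the split and at both ends, the first 10 overlaps, extreme distances, megabases and runs), with exceptions stated. Width, density and isolation tests, and distance limits of 2 and 5 kb, were added after the data were examined. Planned comparisons of gene features and motifs were not run, because the sequence tables at hand are on another build. Simulated data were used to check only the finding of planted overlaps and gaps and the chromosome test. For the chromosome test, simulated regions were drawn independently, unlike neighbouring regions in these lists. Tests ran in scipy 1.17.1 under Python 3.11.15, with pandas 2.3.3 for the tables.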

Additional observations from a re-analysis of the deposited data

How the results depend on the processing

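All differences are late minus early shares in percentage points. The ETS2 difference kept its direction and call under all 13 alternatives run, from -13.8 to -0.43, as did widths under 480 bp (3.32 to 10.1, 8 alternatives) and the share in megabases of more than 20 regions (-11.2 to -2.15, 7 alternatives). Of 159 recomputed values in all, 122 kept direction and side of the threshold. This count includes settings that hardly changed the regions compared, so that keeping the call was nearly certain there. They were a split at either end of the pass at the dividing line, merging within 1 kb, and starts taken as 0-based. Each left the ETS2 overlaps at 15 late and 567 early regions, and all their values kept direction and call. The 13, 8 and 7 alternatives above include some of them. The causes of the shifts in the remaining values were not tested. Settings on the stretches, the 5 kb merging and the pass at the dividing line were chosen after seeing the data.

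With the last 25% of lines against the first 25%, the late-to-early difference within 10 kb was -1.96 and now passed (exact p = 0.0471), as it did between nearest edges at -1.68 (exact p = 0.0359). With the last and first of 3 equal sets of lines, the difference among regions of one kind within 10 kb was -1.30 and no longer passed (exact p = 0.158). Without megabases of more than 20 regions, 0 chromosomes passed, the late-to-early differences of 0.57 within 2 kb and 0.69 within 5 kb no longer passed (exact p = 0.271 and 0.449), and the difference among regions of one kind within 10 kb turned to 0.59 with 4664 late and 4155 early regions. Without stretch 10, parental overlap differed by -0.27 and passed (exact p = 0.0046), 1 chromosome passed, and the late-to-early difference within 10 kb turned to 0.28. Without the first 2 stretches, parental overlap turned to 0.034, 0 chromosomes passed, the late-to-early differences of -1.05, -3.24 and -3.59 within 2, 5 and 10 kb all passed, and another knockout region within 2 kb differed by 1.15 and no longer passed. Between stretches 6 to 8 and 3 to 5, 0 chromosomes passed, the late-to-early differences were -0.77, -1.96, -2.35 and -1.61 within 2, 5, 10 and 100 kb, of which those at 5 and 10 kb passed, those among regions of one kind were 1.08, -1.26, -1.47 and -1.14, and isolation at 100 kb differed by 0.98, of which none passed (exact p of 0.0571, 0.148, 0.131, 0.222 and 0.0962). With regions of one kind within 5 kb merged, parental overlap differed by -0.30 and passed (exact p = 0.0152), and 1 chromosome passed. Merged regions include the unlisted DNA between their members, and early parental overlaps rose from 35 to 41 while late ones stayed at 21. With midpoints within 1000 bp in place of overlap, the parental difference was -0.26 and passed (exact p = 0.0241). With overlap of 50% of both regions it was -0.14 and did not pass (exact p = 0.126).

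No paired analysis was possible because each list came from 1 library with no replicate number and none to leave out. Late-to-early distances and those among regions of one kind were measured only to the regions kept in each setting. Spacing among regions of one kind was not run without stretch 10 or without the first 2 stretches, nor any spacing after merging at 5 kb.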
